A study of Drosophila melanogaster with 4 samples.

Results

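The regions described here are the narrower stretches of H3K4me2 on the X chromosome of adult fly heads. Members were chosen by their measured width in the authors' combined region list, as X regions below 8000 bp that end at or before position 20500000. The rule found 725 members among the 959 X regions inside that limit and among the 5559 regions of the whole list. The other 234 X regions inside the limit were 8000 bp or wider and are called broad, and 37 X regions beyond it were not considered members. The chromatin came from heads of wild-type Oregon-R flies (official name Oregon-R-modENCODE), with the stage given as Mixed Adult, whose adults were kept in population cages on a 22-day cycle. There were 2 ChIP libraries made with an antibody labelled H3K4me2-Active motif and 2 input DNA libraries, and no treatment or mutant was compared. The labels give neither the sex of the flies nor whether the replicates came from separate collections, so the spread between replicates may be technical.

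Histone H3 dimethylated at lysine 4 marks promoters and enhancers that are active or poised, and it often extends over the first part of a transcribed gene. Narrow regions of the mark therefore tend to surround single start sites or distal elements, while broad ones can span whole genes or several neighbours. Fly heads contain the brain, the compound eyes and fat tissue, so a region seen in whole heads can belong to any of these. Male flies have a lone X that is transcribed at a raised rate by the dosage compensation complex, and females carry a pair without that complex.

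All positions are on FlyBase release 5 and are counted from 1. Each region carries a score given by the authors, whose definition and scale are not given in the labels or headers, so it serves here to rank regions and to set arms of a list side by side. Values are given from the combined list and, where possible, from each replicate's own list. Read depth was unknown here. The binomial intervals printed with shares take in counting error and nothing else. The combined list was made from the same libraries as the replicate lists, so recovery in a replicate measures how far the lists share regions. Width chose the members, so widths and the division into narrow and broad are descriptions. Regions of 1 list are not replicates of each other, and the unit for setting X beside 2L, 3L and 3R was the arm. An exact two-sided permutation test over these 4 arms cannot give a p below 0.25.

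The members were mostly short and low-scoring, with a tail of longer and higher-scoring regions. Widths ran from 1001 to 7967 bp with a median of 2871 bp (quartiles 1891 and 4577 bp), and 212 members were under 2 kb. Scores ran from 0.11 to 2.36 with a median of 0.74 (quartiles 0.50 and 1.27). Score rose with width across members (Spearman's rho 0.80, n = 725, a description over regions of 1 list). The median score was 0.45 at 1 to 2 kb, 0.63 at 2 to 3 kb, 0.95 at 3 to 4 kb, 1.2 at 4 to 5 kb and 1.56 at 7 to 8 kb. Together the members covered 2459 kb, or 12.0% of the first 20.5 Mb of X, while the fewer broad regions covered 16.7%.

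**Figure D1:**
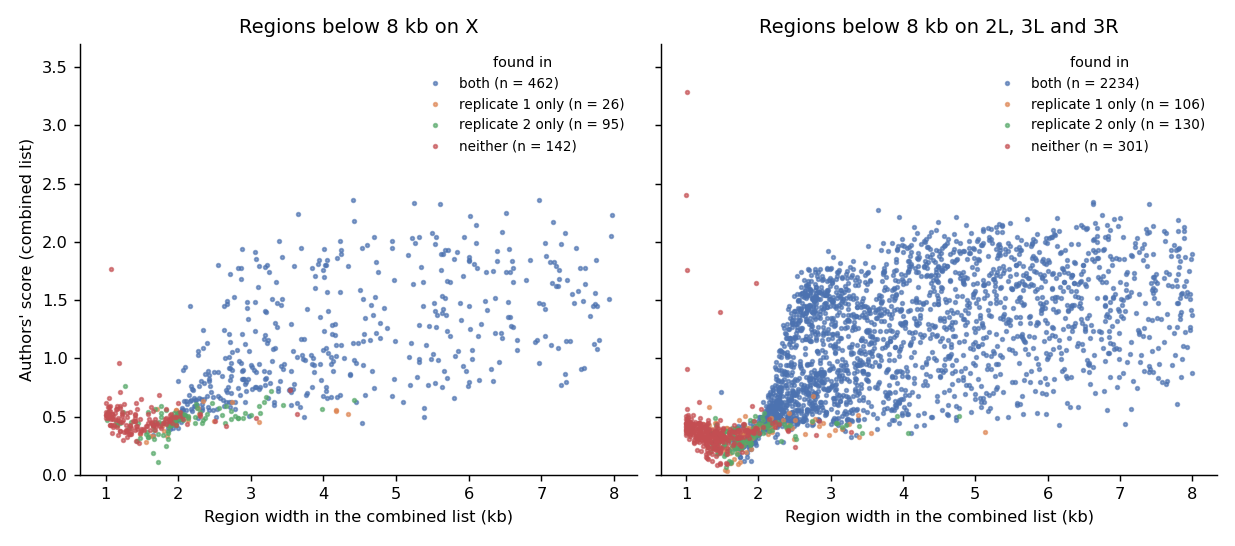
Width (kb) against the authors' score for each region below 8 kb, on X at left and on 2L, 3L and 3R at right. Colours give the replicate lists in which a region was found. On X the 462 regions found in both replicates thin out below a score of 0.7. The right panel pools 2771 regions of 3 arms, so point density cannot be compared between panels. Of regions of 2 to 4 kb, 18.1% on X scored 1.2 or more, against 32.3 to 36.5% on each arm.

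The 3 members with the highest combined scores among those found in both replicates scored above 2.2 in each list. Other members also did so, such as that at X 6711386 to 6716992 (2.32 combined, 2.31 in replicate 1, 2.40 in replicate 2). The member at X 8023068 to 8029576 scored 2.46 in replicate 1. The member at X 6902620 to 6909580 (6961 bp) scored 2.36 in the combined list, 2.39 in replicate 1 and 2.36 in replicate 2. The member at X 1831462 to 1835874 (4413 bp) scored 2.36, 2.32 and 2.40 in the same order, and that at X 9085978 to 9091230 (5253 bp) scored 2.33, 2.41 and 2.26. The lowest-scoring members found in both were all under 2 kb. The member at X 9162370 to 9164020 scored 0.34 in the combined list, 0.46 in replicate 1 and 0.59 in replicate 2. The member at X 17035850 to 17037738 scored 0.39, 0.43 and 0.50, and that at X 18379130 to 18380994 scored 0.40, 0.50 and 0.60. All 3 of these weak members scored higher in replicate 2 than in replicate 1.

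The width limit of 8000 bp divides a continuous range. The members closest below it were 7967 bp (X 16774550 to 16782516, score 2.23), 7955 bp (X 5510536 to 5518490, score 2.05) and 7931 bp (X 10505978 to 10513908, score 1.51). The X regions closest above it were 8007 bp (X 15234302 to 15242308, score 1.74), 8027 bp (X 11744762 to 11752788, score 1.93) and 8055 bp (X 6209554 to 6217608, score 1.39). The replicate regions beneath these 3 broad regions were each below the limit, from 7031 to 7959 bp. Within 100 bp of the limit there were 3 members below and 4 broad regions above. Only 3 members overlapped a replicate 2 region of 8000 bp or more, and 0 overlapped such a region in replicate 1.

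Members were found along the whole of X, with no Mb left without them. The 20 full windows of 1 Mb held 21 to 50 members each, with a median of 35 and a mean of 35.3 (SD 7.82 over windows). The fullest windows were 13 to 14 Mb with 50 members and 3 to 4 Mb with 45. The emptiest were 4 to 5 Mb with 21 and 16 to 17 Mb with 24. The members of 16 to 17 Mb were the widest and highest-scoring of any full window, with medians of 4575 bp and 1.14, whereas the 50 members of 13 to 14 Mb had medians of 2740 bp and 0.89. Broad regions numbered 12 in the fullest window and 16 in the window with 24 members. Over the 20 windows the counts of narrow and broad regions ran weakly against each other (Pearson's r = -0.20, Spearman's rho = -0.27), while on the autosomal arms they ran together (r = 0.30 over 23 windows of 2L, 0.58 over 24 of 3L and 0.41 over 27 of 3R). These coefficients describe windows of shared libraries.

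Counts, scores and recovery of the members were alike in 4 equal stretches of X, while spacing varied. From the tip towards the centromere, these stretches of 5.125 Mb held 172, 183, 189 and 181 members. Median scores were 0.79, 0.68, 0.73 and 0.78, and the share found in both replicates was 63.4%, 63.9%, 64.0% and 63.5%. Median gaps to the nearest region were 1589, 2137, 1255 and 1859 bp, and median distances to a broad region were 20497, 15195, 12385 and 18497 bp. The first member lay at X 1944 to 4338, with scores of 1.14 in the combined list, 1.49 in replicate 1 and 0.98 in replicate 2. The last lay at X 20453342 to 20455270, with a score of 0.47 and a region in replicate 2 alone.

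Members lay close to other regions on X. The median gap from a member to the nearest X region of any width was 1743 bp (quartiles 507 and 5265 bp). A neighbour lay within 1 kb of 271 members (37.4%) and within 2 kb of 386 (53.2%), and 55 members (7.59%) had no region within 20 kb. In the replicates' own lists the median gap of narrow X regions was 2015 bp in replicate 1 and 2000 bp in replicate 2, or 2007 ± 10.3 bp (SD, n = 2). The same replicate medians were 2903 ± 9.19 bp on 2L, 2981 ± 50.2 bp on 3L and 2594 ± 131 bp on 3R (SD, n = 2). The X value was thus below that of each arm by more than the replicate spread. Among the higher-scoring 50% of combined regions the direction turned, with an X median gap of 3383 bp, 28.3 bp above the mean of the arms. In the combined list the arms stood at 2621, 2865 and 2392 bp, and the exact two-sided permutation p over 4 arms was 0.25, the smallest possible.

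More of the nearest neighbours were broad regions on X than elsewhere. The nearest region was a broad one for 199 members (27.4%), against 14.3% of narrow regions on 2L, 17% on 3L and 16.3% on 3R. Narrow regions made up 75.6% of all regions on X, against 85.7%, 83.8% and 84.1% on 2L, 3L and 3R. The 4 arms thus ranked in the same order by the share with a broad nearest region and by the share of broad regions. Whether the one accounts for the other was not tested, nor was a preference for such neighbours. With broad regions left aside, the median gap from a member to the nearest other narrow region was 3223 bp, inside the range of 3195 to 3718 bp on the 3 arms. The replicate lists gave 3305 and 3611 bp on X, against 3391 to 4148 bp on the arms. Narrow regions numbered 35.4 per Mb on X, between the arms, against 36.2 on 2L, 34.7 on 3L and 38.9 on 3R (exact two-sided permutation p = 0.75 over 4 arms). In the replicates' own lists they were fewer on X than on each arm, at 31.9 ± 0.759 per Mb on X, 34.0 ± 0.246 on 2L, 33.0 ± 0.230 on 3L and 37.9 ± 0.329 on 3R (SD, n = 2).

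**Figure D2:**
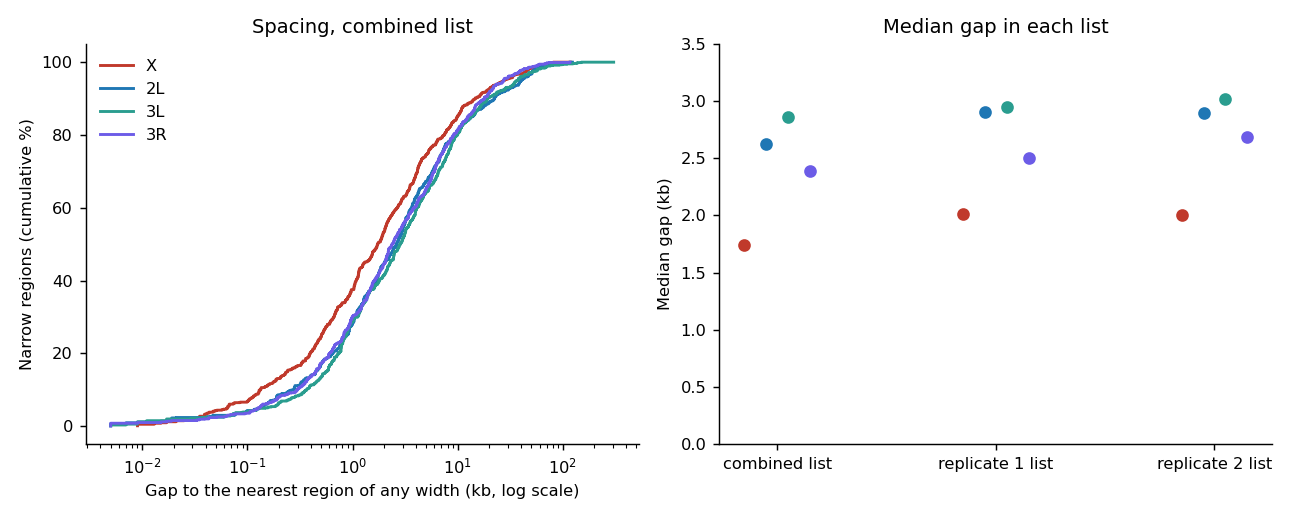
Left, cumulative share (%) of narrow regions by the gap (kb, log scale) to the nearest region of any width, for X and 3 autosomal arms in the combined list. Right, the median gap (kb) in the combined list and in each replicate's own list, where X lies lowest in each (1743, 2015 and 2000 bp).

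Some members formed short runs and a few stood far apart. Runs were counted over members with gaps under 2 kb and no broad region between. By this count 434 members had no other member that close, though a broad region could lie beside them. Pairs numbered 90, and 31 runs held 3 or more members, 111 in all (15.3% of members). On the autosomal arms runs of this size held 13.7% of the narrow regions of 2L, 12.1% on 3L and 12.4% on 3R. The longest run was 6 members at X 13719504 to 13740556, which filled 18722 of 21053 bp. Its outer members scored 1.82 and 1.48 and were found in both replicates. Of the 4 between them, 3 were under 1.5 kb wide, scored 0.34 to 0.38 and were found in neither replicate, and the other scored 0.59 and was found in both. The most solitary member was at X 7339274 to 7341034, 119.1 kb from any other, with a score of 0.50 and a region in replicate 2 alone. The members at X 3464036 to 3471078 (80.8 kb from any other) and X 1026612 to 1029478 (77.6 kb) scored 1.19 and 0.96 and were found in both replicates.

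Broad regions were nearer to narrow ones on X than on the autosomal arms. The median distance from a member to the nearest broad X region was 16197 bp (quartiles 4067 and 41711 bp). On 2L, 3L and 3R the same distance was 43993, 31705 and 34562 bp. The width limit itself defines these distances, so they are given with no test. In the replicates' own lists the X medians were 20.1 kb and 16.2 kb, and the lowest arm median of either replicate was 40.5 kb on 3L. Of the members, 209 (28.8%) lay within 5 kb of a broad region, against 13.9% on 2L, 16.8% on 3L and 16% on 3R. At the other end, 52 members (7.17%) were at least 100 kb from any, against 29.9%, 19.1% and 22.4% on the arms.

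Broad regions were themselves denser on X, at 11.4 per Mb against 6.04 on 2L, 6.72 on 3L and 7.35 on 3R. Among the arms, 3R had denser broad regions than 3L but a longer median distance. The part of this density in the shorter distances on X was not tested. Sequence within 5 kb of a broad region made up 11.1% of the X sequence outside broad regions and 5.75 to 7.10% of that on the arms. Counted per Mb of such sequence, members numbered 110 within 5 kb of a broad region, 49.0 at 5 to 20 kb, 29.3 at 20 to 100 kb and 26.5 beyond. The arms showed the same decline, from 91.8 to 96.3 per Mb within 5 kb to 24.0 to 32.8 beyond 100 kb. The X density within 5 kb was above each arm in the combined list and in both replicate lists (101 and 103 per Mb on X, 86.5 to 98.0 on the arms). At 20 to 100 kb it was below each arm in all 3 lists, at 25 and 24.1 per Mb in the replicates against 34.0 to 37.4.

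**Figure D3:**
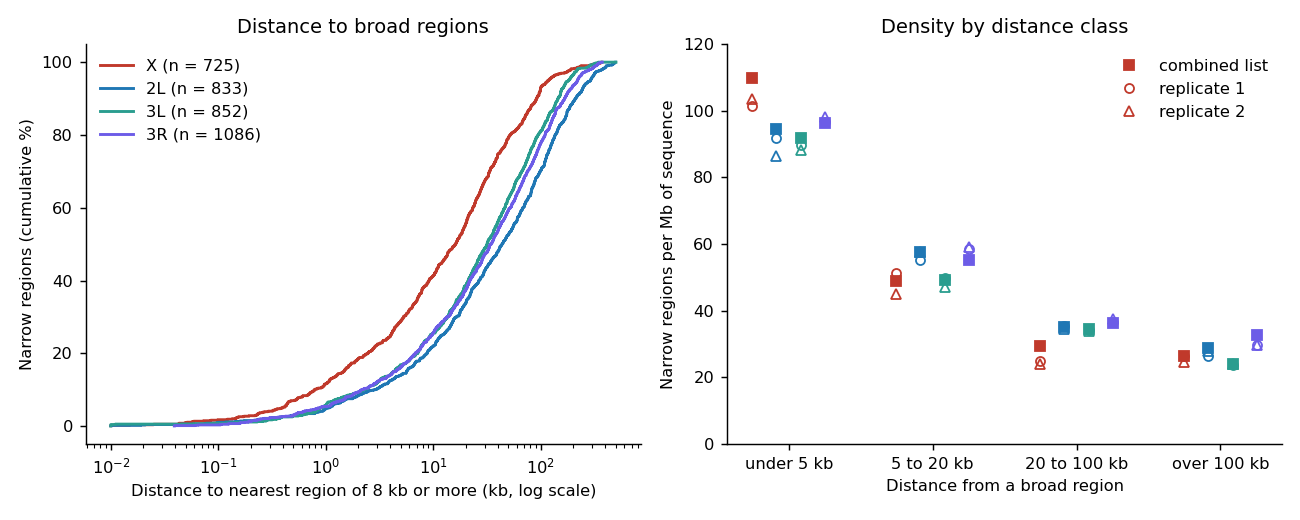
Left, cumulative share (%) of narrow regions by distance (kb, log scale) to the nearest region of 8 kb or more on the same arm. Right, narrow regions per Mb of sequence outside broad regions, in 4 classes of distance, for the combined list (squares) and the lists of replicate 1 (circles) and replicate 2 (triangles), with colours for the arms as at left. X rises earliest at left, and at right has 110 per Mb within 5 kb and 29.3 per Mb at 20 to 100 kb in the combined list.

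Score and recovery of the members showed no steady trend with distance to a broad region. The 133 members within 2 kb of one had a median score of 0.82 and 66.9% were found in both replicates. The 76 at 2 to 5 kb had a median score of 0.70, and 60.5% were found in both. The 272 at 20 to 100 kb had a median score of 0.66, and 60.7% were found in both. The 52 at least 100 kb away had the highest values of any class, with a median score of 0.84 and 73.1% found in both. The 38 members with a broad region as the next region on either side had a median score of 0.61, and 57.9% were found in both, against 0.74 and 63.6% for the 409 with narrow regions on both sides. The farthest members from any broad region lay together. They were at X 2999448 to 3001732 (365.8 kb away, score 0.52, replicate 1 alone), X 3005628 to 3007630 (364.3 kb, score 0.62, neither replicate) and X 2993240 to 2999290 (359.6 kb, score 0.99, both).

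Fewer of the narrow X regions were recovered in the replicate lists than of regions of the same width elsewhere. With an overlap of at least 1 bp, 462 of 725 members (63.7%, exact 95% binomial interval 60.1 to 67.2%) were found in both replicates, where the share over all 5559 combined regions was 81.7%. Replicate 1 held a region at 488 members (67.3%, interval 63.8 to 70.7%; 85.0% over all combined regions) and replicate 2 at 557 (76.8%, interval 73.6 to 79.9%; 86.5% over all). Neither replicate held a region at 142 members (19.6%, interval 16.8 to 22.7%; 10.2% over all). The narrow regions of 2L, 3L and 3R were found in both replicates at 80.4%, 80.6% and 80.8%, with a lowest interval bound of 77.6%. The deficit of X against the mean of these arms was larger for replicate 1 (67.3% against 84.5%) than for replicate 2 (76.8% against 85.2%). The exact two-sided permutation p over 4 arms was 0.25 for each of these shares.

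Members seen in replicate 2 alone outnumbered those seen in replicate 1 alone by 95 to 26. On 2L the same counts were 44 and 34, on 3R 62 and 37, and on 3L the order was opposite at 24 and 35. Replicate 2 held more members than replicate 1 in 18 of the 20 full X windows of 1 Mb and fewer in 2. The imbalance was also seen between the replicates' own lists. Of the 642 narrow X regions of replicate 2, 83.5% (interval 80.4 to 86.3%) overlapped a replicate 1 region, against 93.8 to 96.4% on the arms. Of the 664 narrow X regions of replicate 1, 95.3% overlapped a replicate 2 region, inside the range of the arms (94.8 to 95.6%).

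Recovery followed width, and the shares on X were lower than on each arm below 5 kb. At 1 to 2 kb, 13 of 212 members (6.13%, interval 3.31 to 10.3%) were found in both replicates, against 20.8% on 2L, 16.8% on 3L and 17.7% on 3R. At 2 to 3 kb the share was 71.5% (123 of 172, interval 64.1 to 78.1%), against 90.7%, 91.1% and 93.0%. At 3 to 4 kb it was 89.4% (interval 81.9 to 94.6%), against 98.2%, 96.3% and 96.9%, and its interval met those of 3L (from 91.5%) and 3R (from 93.3%) but ended just below that of 2L (from 94.7%). At 4 to 5 kb it was 94.8% (interval 87.2 to 98.6%), against 99.0%, 100% and 99.2%, with intervals that overlapped. All 160 members of 5 kb or more were found in both. X also had more of the shortest regions, with 29.2% of members under 2 kb against 20.8%, 19.6% and 20.3% on the arms. These widths are of the combined list, which differed more from the replicate widths on X. Among members with 1 region of their own in each replicate, the combined region was wider than that of replicate 1 by a median of 347 bp. On the arms this was 161 to 170.5 bp. For replicate 2 it was 179 bp on X, against 146 to 156 bp. Its part in the recovery by width was not tested.

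Within classes of score the contrast was present below 0.7. Among the 162 members scoring 0.5 to 0.7, 67 (41.4%, interval 33.7 to 49.4%) were found in both replicates, against 91.2% (83.9 to 95.9%) on 2L, 95.5% (88.9 to 98.8%) on 3L and 96.9% (91.2 to 99.4%) on 3R. These classes differed in width, since 57 of the 162 X members were under 2 kb (1 found in both) and 2 to 4 regions on each arm. At 2 to 3 kb and the same score the share was 63.2% on X (48 of 76, interval 51.3 to 73.9%), against 93.7% on 2L (84.5 to 98.2%) and 100% of 50 regions on 3L and of 54 on 3R. Between 0.3 and 0.5, over all widths, the share was 11.5% (interval 7.16 to 17.2%), against 37.1%, 34.9% and 42.4%. Here too widths differed, with 142 of 174 X members under 2 kb, against 111 of 167, 95 of 169 and 156 of 269. At 1 to 2 kb the share was 7.75% on X (3.93 to 13.4%), against 22.5%, 10.5% and 17.9%. That X interval met those of 3L and 3R. At 2 to 3 kb the share was 22.2% on X (8.62 to 42.3%), against 65.2%, 66.1% and 75.6%, with intervals apart. From 0.7 upward the shares came together, at 98.4% on X and 99.5 to 99.8% on the arms. Below 0.7, 25.3% of the 344 X members were found in both, against 49.8 to 51.6% on the arms.

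**Figure D4:**
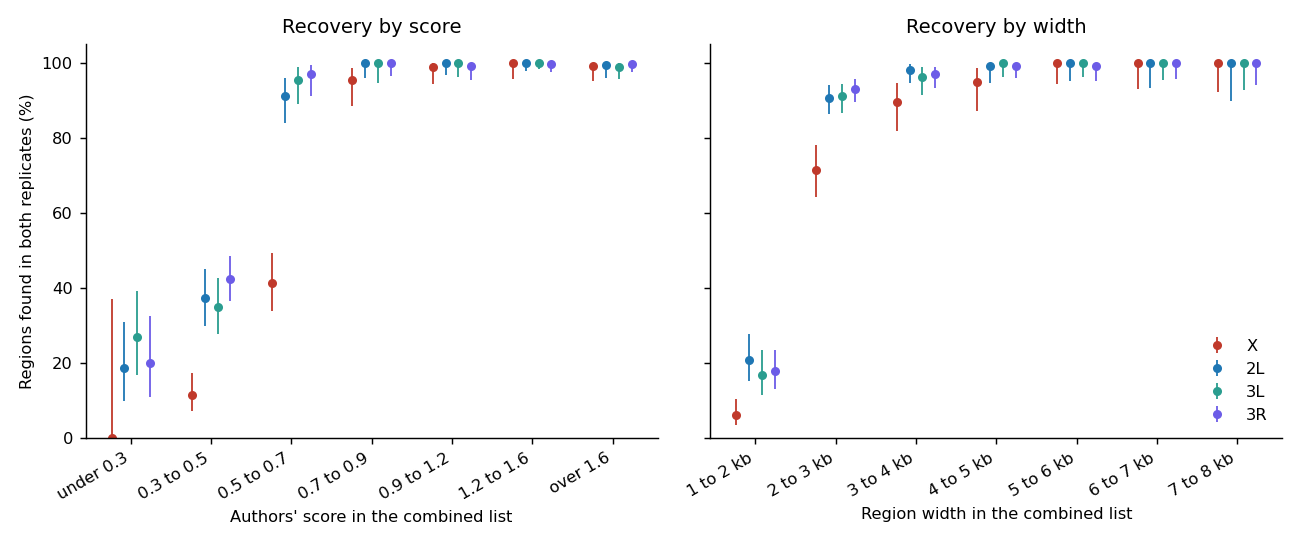
Share (%) of narrow regions found in both replicate lists, in classes of the authors' score (left) and of width (right), for X, 2L, 3L and 3R, with exact 95% binomial intervals as bars. X lies lowest at scores of 0.5 to 0.7 (41.4%) and at widths of 2 to 3 kb (71.5%), and all arms are near 100% at high scores and widths.

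The scores at which regions entered the lists also differed on X. Among regions of 1 to 2 kb, the lowest 5% of combined scores ended at 0.32 on X and at 0.16 to 0.18 on the arms. The same value was 0.47 on X against 0.31 to 0.36 on the arms in replicate 1, and 0.50 against 0.29 to 0.33 in replicate 2. At 2 to 4 kb it was 0.69 on X against 0.59 on each arm in replicate 1, and 0.72 against 0.54 to 0.57 in replicate 2. The combined list gave 0.48 on X against 0.41 to 0.42 at 2 to 4 kb. At 4 to 8 kb the value was 0.67 on X against 0.61 to 0.70 in the combined list, 0.92 against 0.90 to 0.92 in replicate 1, and 0.95 against 0.87 to 0.93 in replicate 2. The higher starting score on X was thus seen in all 3 lists below 4 kb and not in all of them above, and its part in the lower recovery was not tested.

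The members missing from a replicate were short and weak, with a few exceptions. Median width and median score were 1354 bp and 0.48 for the 142 found in neither, 1939 bp and 0.48 for the 95 in replicate 2 alone, and 1966 bp and 0.46 for the 26 in replicate 1 alone. The 462 found in both had medians of 4005 bp and 1.09. On the 3 arms together the regions found in neither had a lower median score, 0.36, at a similar width of 1307 bp. Distance to a broad region was alike for members found in both (median 16183 bp) and in neither (17502 bp).

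Among members found in neither replicate, the highest score was 1.77, at X 15315926 to 15317000, a region of 1075 bp. The next were at X 927296 to 928476 (1181 bp, score 0.96) and X 10498318 to 10501856 (3539 bp, score 0.72). The highest scores in replicate 2 alone were at X 196674 to 197938 (0.76 in the combined list and 0.87 in replicate 2), X 15794350 to 15797630 (0.72 and 0.98) and X 20276154 to 20279366 (0.67 and 0.95). The last 2 lay 779 and 57 bp from a broad region. In replicate 1 alone the highest were at X 18247772 to 18250112 (0.63 in the combined list and 0.87 in replicate 1), X 3623158 to 3625892 (0.63 and 0.90) and X 17724696 to 17726974 (0.57 and 0.75).

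Where a member had 1 region of its own in each replicate, the scores ran closely together. Over all such members there was a shift towards replicate 2 that the arms did not show. Whether the replicate lists share a scale of score is not known here. There were 421 such members, 58.1% of all, against 77.3% of narrow regions on 2L, 77.2% on 3L and 76.8% on 3R. Across these members, which share libraries, Pearson's r between the replicate scores was 0.95 and the rank correlation (Spearman's rho) 0.94, against r = 0.97 to 0.98 on the arms. The median score was 1.16 in replicate 1 and 1.17 in replicate 2. The difference, replicate 2 minus replicate 1, had a median of 0.03 (quartiles -0.05 and 0.13) and was positive for 248 members (58.9%). On the arms its median was -0.06 on 2L, -0.05 on 3L and -0.05 on 3R, and 28.3%, 32.7% and 32.0% of pairs were positive. The X median lay 0.09 above the mean of the arms (exact two-sided permutation p = 0.25 over 4 arms). A like shift was known over X regions of all widths, so the narrow ones are no separate support for it.

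The size of the difference varied with width, score and distance to a broad region. The 13 paired members of 1 to 2 kb had a median of 0.02, with 53.8% positive. Members of 2 to 3 kb and of 3 to 4 kb had median differences of 0.05 and 0.06, with 65.3% and 67.0% positive. Those of 5 to 6 kb and of 7 to 8 kb had medians of 0.00 and -0.01, with 51.9% and 45.9% positive. On the 3 arms pooled the median also fell, from -0.04 at 2 to 3 kb to -0.08 at 5 to 6 kb, so X stayed above the arms in both classes. The arms pooled stood at -0.02 at 1 to 2 kb, -0.05 at 3 to 4 kb and -0.06 at 7 to 8 kb, and the distance from X to the arms showed no steady trend with width. The 109 paired members scoring 1.6 or more had a median difference of -0.01, with 47.7% positive (arms pooled -0.08 and 18.8%). The 35 at least 100 kb from a broad region had a median of -0.03, with 42.9% positive (arms pooled -0.05 and 33.7%). Paired members were also wider in replicate 2, by a median of 175 bp, and 300 of 421 (71.3%) were wider there, against 48.9 to 54.7% on the arms. Their starts differed by a median of 125 bp between replicates and their ends by 125 bp, against 60 to 75 bp on the arms.

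**Figure D5:**
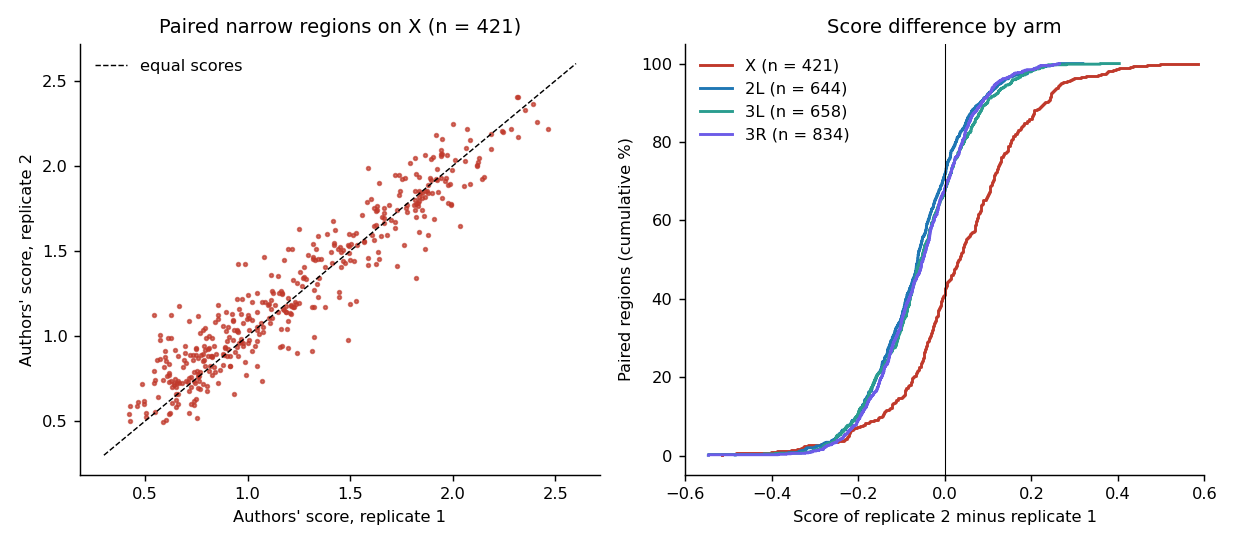
Left, the authors' score in replicate 1 and replicate 2 for the 421 members with 1 region of their own in each, with the line of equal scores. Right, cumulative share (%) of paired narrow regions by the score of replicate 2 minus replicate 1 on each arm, where the X curve lies to the right of the others (median 0.03 against -0.06 to -0.05).

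The members that shifted most were at both ends of this range. The member at X 17631688 to 17634108 scored 0.54 in replicate 1 and 1.13 in replicate 2. The member at X 13148550 to 13151802 scored 0.66 and 1.17, and that at X 18767752 to 18773758 scored 0.63 and 1.13. The last of these was 1811 bp wide in replicate 1 and 6112 bp in replicate 2. The largest losses were at X 1944 to 4338 (1.49 in replicate 1 and 0.98 in replicate 2), X 18408746 to 18414286 (1.82 and 1.34) and X 16540 to 18810 (1.32 and 0.91). Of these 3, the first and the last lay within the first 20 kb of the assembled X.

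Short regions with high scores were scarcer on X. This comparison and its limits were chosen after the values were seen. Of the 276 members of 2 to 4 kb, 50 scored 1.2 or more (18.1%, exact 95% binomial interval 13.8 to 23.2%), against 32.3% on 2L, 36.5% on 3L and 32.8% on 3R. In the replicates' own lists the contrast was smaller. The share was 35.5% on X in replicate 1 (interval 30.0 to 41.3%), against 42.2 to 45.0% on the arms. That interval overlapped those of 2L (38.0 to 47.6%), 3L (39.9 to 50.1%) and 3R (37.8 to 46.7%). In replicate 2 the share was 27.3% on X (22.2 to 32.8%), against 38.1 to 41.2% on the arms. Per Mb of the combined list this came to 2.44 on X and 5.50 to 5.63 on the arms. In the replicates' own lists such regions numbered 5.07 and 3.80 per Mb on X (4.44 ± 0.897, SD, n = 2), against 7.43 ± 0.737 on 2L, 6.72 ± 0.519 on 3L and 7.35 ± 0.152 on 3R (SD, n = 2). The X value was below that of each arm in all 3 lists. For regions of 4 to 8 kb the shares scoring 1.2 or more lay closer, at 62.0% on X and 65.9%, 74.0% and 72.4% on the arms. In the replicate lists the shares at 4 to 8 kb were 78.3% and 80.2% on X, against 78.5% and 79.6% on 2L, 84.8% and 82.0% on 3L, and 81.7% and 81.8% on 3R.

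Over all members the median score was 0.74, against 0.90, 1.03 and 0.95 on 2L, 3L and 3R, but the order depended on width and on the list. Among the higher-scoring 50% of combined regions the X median was 0.038 above the mean of the arms. That subset was cut by the same score, so its order is partly set by the cut and is no separate result. At 1 to 2 kb X was the highest, at 0.45 against 0.33 to 0.35. From 2 to 6 kb it was the lowest in the combined list in each class of 1 kb, by 0.09 to 0.22 below the mean of the arms (exact two-sided permutation p = 0.25 in each class, the smallest possible). At 6 to 7 and 7 to 8 kb it lay among the arms, at 1.48 and 1.56. In the replicate lists the X median at 4 to 8 kb also lay among the arms, at 1.62 against 1.61 to 1.68 in replicate 1 and 1.59 against 1.56 to 1.63 in replicate 2.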

How the data were processed

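Head nuclei of Oregon-R flies gave 2 ChIP and 2 input libraries, grouped by their titles. From the ChIP libraries the authors deposited a region list per replicate and a combined list, with positions on FlyBase r5 and a score for each region. The submitters' processing notes name Bowtie 0.12.7. Not given in the sources used here are the peak caller, its threshold, what the score measures and how the combined list was made. All starts and ends of the combined list are even numbers, unlike those of the replicate lists, so its positions are resolved to 2 bp.

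Overlaps, gaps and distances were computed with pandas 2.3.3, scipy 1.17.1 and numpy 2.4.6 under Python 3.11.15, in scripts tested on simulated data, and drawn with matplotlib 3.10.9. Neighbours were sought along the whole arm. Recovery means an overlap of at least 1 bp. Score differences used members with 1 region in each replicate that overlapped no other combined region. Intervals are exact Clopper-Pearson. The autosomal arms were used whole, except where 2 Mb at the centromere end is said to be left out. Members, classes and comparisons were chosen with earlier results of these data known. Named regions are the 3 most extreme of each kind described (score, gap, distance, score difference, width limit), the longest run, and the 2 fullest and 2 emptiest windows; the first and last member were added. No genome sequence or annotation of this build was used, so no sequence or gene name is given. Input values were not analysed here.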

Additional observations from a re-analysis of the deposited data

How the results depend on the processing

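The contrasts, X minus the mean of the 3 arms, kept their direction under every alternative run except with the higher-scoring 50% of the combined list, where the gap contrast became 28.3 bp and the median score contrast 0.038. This subset was cut by the score itself, so its score contrast is partly set by the cut. With that list the members numbered 229, with a median gap of 3383 bp, a median distance of 12461 bp to a broad region and 99.6% found in both, in replicate 1 and in replicate 2. The recovery contrast then shrank from -16.9 to -0.03 percentage points. Over the other alternatives it ran from -19.5 to -8.82, the smaller size being for regions of at least 2000 bp, a limit added after the data were seen. With that limit the shares found in both, in replicate 1 and in replicate 2 were 87.5%, 89.7% and 95.5%. The distance contrast ran from -49938 bp with a limit of 10000 bp to -8988 bp with one of 6000 bp. A reciprocal overlap of 50% gave 59.6% in both and 63.7% in replicate 1. Limits of 6000 and 10000 bp gave median gaps of 1859 and 1687 bp and median distances of 8415 and 20852 bp, and the lower limit gave shares of 58.2%, 62.3% and 73.3%. Merging regions under 1000 bp apart gave a median gap of 3921 bp. With each replicate's own list in turn, the members numbered 642 to 664, the median gap was 2000 to 2015 bp, the median distance was 16184 to 20130 bp, and the contrasts ran from -866 to -771 bp for the gap, from -32606 to -26363 bp for the distance, from -3.72 to -2.49 per Mb for density and from -0.14 to -0.12 for score. The cause of these changes was not tested. No paired analysis was possible because the input libraries, which share the replicate numbers, gave no values here. Read depth is unknown here, and 4 arms cannot reach a p of 0.05.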
